A study of Mus musculus with 28 samples.

Results

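Of 255567 open-chromatin regions merged from 27 mouse ATAC-seq libraries, 13864 (5.42%) held a peak in every one of the 27. These regions are described here. ATAC-seq uses a transposase that cuts accessible DNA, so a peak marks a stretch that was open in part of the cells. A region was chosen when each of the 27 peak lists had at least 1 peak in it, peaks being merged when they overlapped by 1 bp or more. The list of the second MEF10 MyoD+FRG library was left out of the choice, because its peaks were of another kind: its most common width was 500 bp, its widest peak reached 202465 bp, and it covered 92.9 Mb.

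The study had 28 libraries in 14 groups of 2. Activated and quiescent satellite cells were labelled as such, and per the labels' protocols satellite cells came from adult Pax7-nGFP mice aged 10 to 12 weeks. Dox+FRG GFP cells of days 8 and 10 and day 6 MEF10 cells of the kinds MyoD+FRG and MN+FRG were the next groups. MEF14 fibroblasts were listed at day 0, after 2, 4, 6 and 8 days of Dox+FRG, after 4 and 8 days of Dox, and after 8 days of FRG. The protocols describe the embryonic fibroblasts as E13.5 cells that carry the reporter Pax7-nGFP, the doxycycline-dependent activator Rosa-rtTA and the transgene Col1a1-tetO-MyoD, so that 2 µg/ml doxycycline switches on MyoD. All MEF14 groups, day 0 included, carry these alleles under that description. The medium for progenitor cells held doxycycline, 10 ng/ml basic FGF, 5 µM forskolin, 5 µM RepSox and 3 µM CHIR99021, and FRG is read here as the small molecules. The medium for myotubes held doxycycline and basic FGF without them. MN and MEF10 are not explained in the labels, and how GFP cells were obtained is not stated. The labels do not tell whether replicate libraries stem from different cultures or animals, and a p-value here reflects only how these libraries vary, which may be technical variation.

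MyoD is a transcription factor of the muscle lineage that can bind closed chromatin and turn fibroblasts towards muscle. Forskolin raises cyclic AMP, RepSox blocks a TGF-beta receptor, and CHIR99021 blocks the kinase GSK3. Satellite cells are the Pax7-positive stem cells of skeletal muscle, quiescent in resting muscle and activated on injury or in culture. Regions that are open in many unrelated cell types are known to lie mostly at promoters and at sites of the insulator protein CTCF, whereas enhancers tend to be open in few cell types. The peak lists carry no gene names, and the gene tables at hand were for another genome build than mm9, so regions are given by position alone and no region is assigned to a gene or class of element.

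The lists differed in length and in peak width, and both set limits on what follows. They held 37301 to 134997 peaks, with 37301 in MEF10 MyoD+FRG replicate 1, 37910 in quiescent satellite cell replicate 2, and the longest lists in the FRG, Dox and MN+FRG groups. In each of the 27 lists 67.9 to 93.5% of peaks had 1 most common width, which ran from 61 bp in FRG replicate 1 to 205 bp in Dox+FRG day 2 replicate 2. The next width in each list was at least 3 times the most common one. A peak wider than its list's most common width is called wide here, and the other peaks narrow. The lists give no peak height and no reads, so sequencing depth is unknown. In bulk libraries, a region open in fewer cells and a region less open in each cell cannot be told apart.

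Regions called in all 27 libraries were far more frequent than regions called in slightly fewer. Regions found in 1 library were the most frequent, with 60459 regions (23.7%), and those in 22 libraries the least frequent, with 2548. There were 2588 regions in 24 libraries, 3083 regions in 25, 3428 in 26 and 13864 in 27 libraries. Of the 54122 regions called in 14 or more libraries, 25.6% were called in all 27. Just inside the limit, regions called in all 27 had a median merged width of 927 bp, and just outside it, regions called in 26 had 817 bp and regions called in 25 had 690 bp. Regions short of 27 had a median of 190 bp. A wider merged region has more room for a peak, and the width belongs to what chose the regions, so these widths are a description. The 13864 regions took up 14.4 of the 92.9 Mb in merged regions, or 15.5%.

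**Figure D1:**
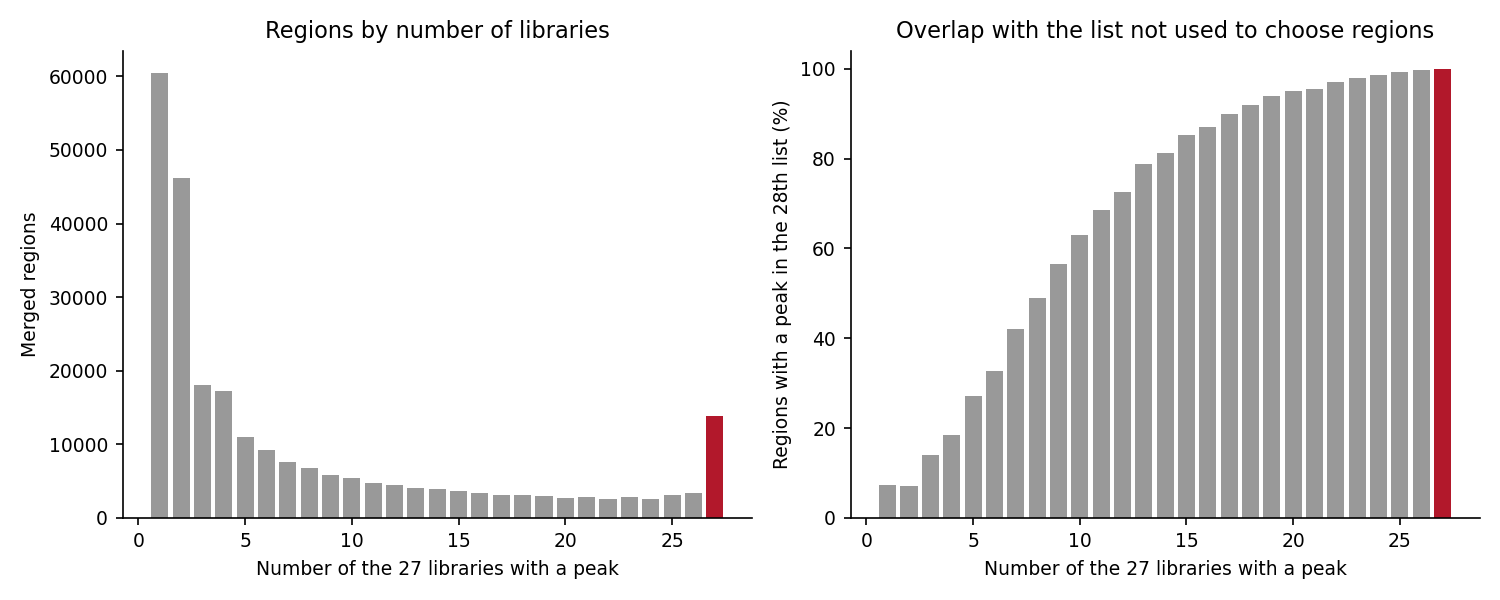
Left, number of merged regions by the number of the 27 libraries that had a peak in them. Right, share of those regions with a peak in the 28th list, which was not used for the choice. Regions called in all 27 libraries (red) numbered 13864, against 3428 in 26, and 99.96% of them had a peak in the 28th list.

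The list that the choice did not use had a peak in nearly all of these regions. Of the 13864 regions, 13858 (99.96%) overlapped a peak of MEF10 MyoD+FRG replicate 2, beside 36.6% of all 255567 regions and 33% of those called in fewer than 27 libraries. The share increased with the number of libraries throughout most of the range, with 7.26% of regions called in 1 library, 62.9% of those in 10 and 99.8% of those in 26. Regions called in 26 libraries were thus at nearly the same share as regions called in 27. The 28th list also covered many bases, and 34 of its peaks were over 10000 bp. Without those 34 peaks the shares were 99.8% of the regions open in all 27 and 36.6% of all regions. Peaks of the 28th list that touched these regions were wider, with a median of 1506 bp against 634 bp for its other peaks. Of the touching peaks 99.3% exceeded 500 bp, against 62.6% of the other peaks.

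The 6 regions without a peak in the 28th list were chr4:88440261-88440475, chr4:88451770-88451984, chr10:129979039-129979718, chr16:98302904-98303949, chr18:90748850-90749414 and chrX:166445620-166446851 (mm9, counted from 1). The pair on chromosome 4 were 215 bp wide each. The other 4 were between 565 and 1232 bp wide. These 6 were named because their number is small.

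A pair of lists decided most of the regions that fell short by 1 library. Of the 3428 regions called in 26 libraries, MEF10 MyoD+FRG replicate 1 was the missing library in 1284 (37.5%) and quiescent satellite cell replicate 2 in 887 (25.9%). These were the shortest lists, with 37301 and 37910 peaks. Activated satellite cell replicate 1 was missing in 265, Dox+FRG day 8 GFP replicate 2 in 169 and Dox+FRG day 2 replicate 2 in 133. Each of the other 22 libraries was missing in 1 to 105. Leaving out MEF10 MyoD+FRG replicate 1 gave 15147 regions called in all remaining libraries, and leaving out quiescent satellite cell replicate 2 gave 14751.

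Among the 3083 regions called in 25 libraries, 1379 lacked a peak in both libraries of a single group. Quiescent satellite cells were that group for 691 regions, day 0 fibroblasts for 242, activated satellite cells for 179 and Dox+FRG day 8 GFP cells for 164. FRG cells were it for 44 regions. Dox+FRG cells of days 2, 4, 6 and 8 were it for 25, 2, 1 and 14. MN+FRG cells were it for 7, Dox cells for 9 on day 4 and 0 on day 8, and Dox+FRG day 10 GFP cells for 1. MEF10 MyoD+FRG had 1 library in the choice and could not appear here. The day 0 lists, at 70756 and 67502 peaks, were longer than the median list of 64947 peaks.

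A region called in all 27 libraries was not always open at the same bases. In 5670 of the 13864 regions (40.9%) at least 1 base was covered by a peak of every library, and in 8194 none was. The shared stretch had a median of 31 bp, from 7 bp at the 10th to 78 bp at the 90th percentile. In 12114 regions (87.4%) every library had exactly 1 peak. Peak middles there lay at a median of 15.5 bp from the median middle of the region, and 50 bp at the 90th percentile. From the first to the last middle of a region there were a median of 114 bp. Day 8 GFP replicate 2, at 25.8 bp, and quiescent satellite cell replicate 2, at 25 bp, had the largest median distances, and Dox+FRG day 4 replicate 1, at 9.75 bp, the smallest.

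The longest shared stretches lay in regions wide in all 27 libraries, which follows from ranking by a stretch that every library covers. The region chr1:44175387-44176915 had 1086 bp covered in every library. Its peak measured 1298 and 1263 bp in activated satellite cells, 1216 and 1260 bp in quiescent satellite cells, 1246 and 1168 bp in day 10 GFP cells and 1160 and 1181 bp in day 0 fibroblasts. Over all libraries it ran from 1103 bp in Dox day 4 replicate 1 to 1478 bp in FRG replicate 2. The regions chr3:8244681-8246543 and chr17:21652669-21654039 followed, with shared stretches of 1074 and 1041 bp. They measured 1077 to 1857 bp and 1068 to 1301 bp over the 27 libraries, with 1 peak per library.

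The widest merged regions were of another make. The region chr9:3023420-3027816 spanned 4397 bp, with 49 peaks in the 27 lists and 157 bp covered in every library. Its peaks summed to 2235 and 2234 bp in activated satellite cells, against 360 and 344 bp in quiescent satellite cells. In day 0 fibroblasts they summed to 306 and 334 bp, in Dox cells to 3262 and 3264 bp on day 4 and 3269 and 2646 bp on day 8, and in FRG cells to 3300 and 3302 bp. Dox+FRG libraries of days 4, 6 and 8 disagreed within each group, with 356 and 2225 bp on day 4, 344 and 2178 bp on day 6 and 360 and 2205 bp on day 8. Regions of repeated sequence were not set aside here, and whether chr9:3023420-3027816 is one was not tested. The next widest were chr11:97658411-97662609, at 4199 bp with no base shared by all libraries, and chr4:122959796-122963971, at 4176 bp with 78 bp shared. At the other end, 3 regions of 205 bp (chr1:104524743-104524947, chr6:49186415-49186619 and chr9:3258764-3258968) had a narrow peak in every library and middles that fell almost together. They were picked as the narrowest after the widths had been seen.

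In each of the 27 lists, wide peaks were more frequent in the regions open everywhere than among the other peaks of the list. Wide peaks were present in 14.3 and 16.9% of the 13864 regions in activated satellite cells, and in 18.1 and 12.4% in quiescent satellite cells. Day 8 GFP cells had 13.3 and 9.74%, day 10 GFP cells 16 and 13.7%, and day 0 fibroblasts 26.1 and 21.3%. Dox cells had 66.3 and 65.3% on day 4 and 61.6 and 59.7% on day 8, and FRG cells had 80.5 and 80.7%. The other peaks of the same lists were wide in 3.39 to 26.5% of cases. Since the most common width differed between lists, a peak had to reach 183 bp to count as wide in FRG replicate 1, and 617 bp in Dox+FRG day 2 replicate 2. With a limit of 617 bp in every list, the shares were 9.28 to 46.6% of these regions and 2.48 to 10.2% of other peaks. FRG cells then had 45.6 and 46.6%, and Dox cells 32.8 to 34.2%, and the other groups 9.28 to 25.6%. A region was chosen by its calls and not by its width, but wider peaks overlap more readily, so this too is a description.

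**Figure D2:**
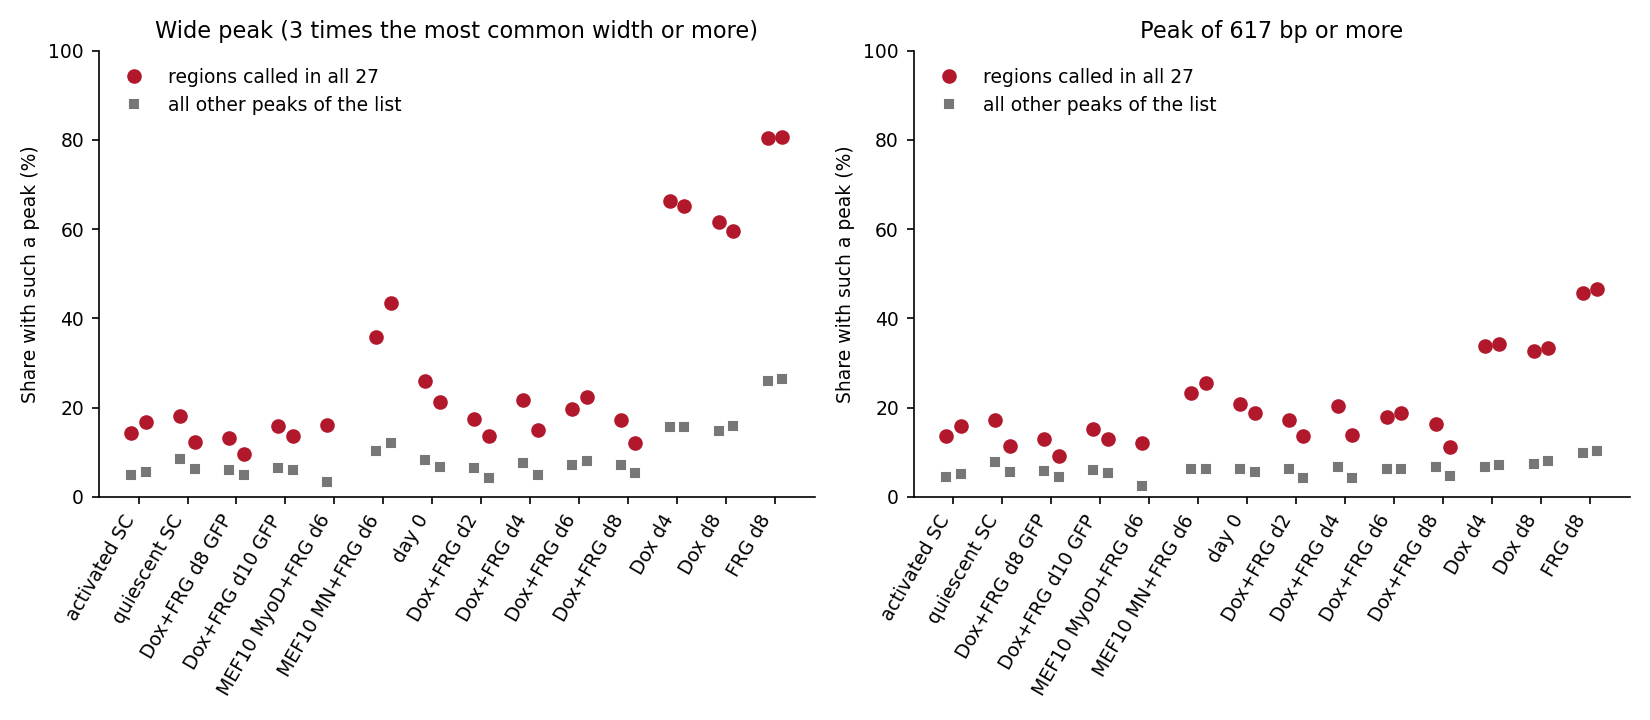
Share of the regions called in all 27 libraries that held a wide peak (red circles) and share of all other peaks of the same list that were wide (grey squares), 1 point per library. Left, wide by each list's own most common width. Right, a peak of 617 bp or more in every list. FRG and Dox lists were highest under both limits, and in each list the red point lies above the grey one.

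The breadth of these regions was then compared between sides of the study. Breadth is the mean over the 13864 regions of log2 of the summed peak length over the list's most common width, 1 value per library. The choice of regions was not independent of width, since wider peaks overlap more readily. The tests below split single libraries as if independent, although those of 1 group could be close. FRG libraries had 2.81 and 2.80, and Dox day 4 libraries 2.04 and 2.02. Satellite cells had 0.39 ± 0.06 (SD, n = 4) and fibroblast-derived libraries 0.95 ± 0.83 (SD, n = 23), a difference of -0.56 that did not pass a two-sided exact permutation test (17550 splits, p = 0.194, adjusted p = 0.194). The fibroblast-derived libraries ran from 0.24 to 2.81 and enclosed the satellite cells, which ran from 0.31 to 0.45. The 7 fibroblast-derived lists whose most common width fell within that of the satellite cell lists, 172 to 182 bp, had 0.39 ± 0.10 (SD, n = 7), against the same 0.39 ± 0.06 in satellite cells. All 7 were Dox+FRG libraries (both of day 4, day 6 replicate 1, both of day 8, day 8 GFP replicate 2 and day 10 GFP replicate 2), so the matching changed the treatment of the libraries along with their width.

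Dox+FRG GFP cells of days 8 and 10 had a breadth of 0.33 ± 0.06 (SD, n = 4), and unsorted Dox+FRG cells of days 2 to 8 had 0.43 ± 0.09 (SD, n = 8). The difference of -0.10 did not pass (p = 0.0788, adjusted p = 0.118, two-sided exact permutation test, 495 splits). The sides overlapped, at 0.24 to 0.39 and 0.31 to 0.57. Cells without a GFP label are called unsorted, although the labels do not say so. Dox+FRG cells of days 4 and 8 had 0.41 ± 0.09 and Dox cells of the same days 1.94 ± 0.11 (SD, n = 4 each), a difference of -1.53. Every Dox library, at 1.80 to 2.04, was above every Dox+FRG library, at 0.31 to 0.53. With 70 splits the smallest p is the one found (two-sided exact permutation test, p = 0.0286, adjusted over the 3 comparisons p = 0.0857), and the difference did not pass after adjustment. The most common widths, 172 to 180 bp in Dox+FRG and 78 to 88 bp in Dox lists, and the list lengths, 50608 to 70877 and 89871 to 130916 peaks, moved with the groups, and their part in the difference was not tested. The mean summed length in bp was 305 ± 34.5 in Dox+FRG and 511 ± 8.84 in Dox libraries (SD, n = 4 each).

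By each list's own most common width, few regions were wide everywhere or nowhere. Of the 13864 regions, 1172 (8.45%) were wide in 0 libraries, 7909 (57%) in 1 to 8 libraries, 4583 (33.1%) in 9 to 26 libraries and 200 (1.44%) in all 27. The Dox, FRG and MN+FRG lists had the lowest limits and held wide peaks in 35.8 to 80.7% of the regions. Their part in these counts was not tested, and the counts were not made with the 617 bp limit. In the 6 satellite cell and day 0 lists, 8427 regions (60.8%) were narrow throughout.

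Which of the regions were wide was shared within groups. To compare lists whose widths differ, the 1500 regions with the longest summed peaks were taken in each library. The libraries of 1 group had 65.9 ± 3.83% of their 1500 in common (SD, n = 13 pairs), with a range of 58.5 to 72.7%, and the 338 pairs from different groups 45.5%, with a range of 24.9 to 73%. For 20 of 26 libraries the nearest list was that of the own replicate. The 6 others were all Dox+FRG libraries of days 4 to 8, GFP cells included, and their nearest list was another Dox+FRG list. In all, 13 regions were among the 1500 of every library, 5808 were among those of at least 1, and 1253 among those of 1 library alone. Among the 19 libraries with a most common width of 150 bp or more, pairs of 1 group shared 65.6 ± 4.58% (SD, n = 9 pairs) and other pairs 53%. In Dox+FRG day 8 GFP replicate 2 the last place was tied between 207 regions at 364 bp, and these were taken in genome order.

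Outside their own group, the widest regions of activated satellite cells had the highest mean overlap with Dox+FRG cells of days 4 and 6. Those of quiescent satellite cells had it with day 10 GFP cells. Both orders rest on small margins, and the pairs overlapped. Activated cells had 52.9 to 56.7% with day 4 and 51 to 56.5% with day 8 of Dox+FRG. Quiescent cells had 52.2 to 55.9% with day 10 GFP cells and 47.1 to 54.8% with unsorted day 8 cells. Activated satellite cells shared a mean of 51.6, 55, 55 and 53.2% of their 1500 with Dox+FRG cells of days 2, 4, 6 and 8, and 46.7% with day 0 fibroblasts. They shared 49.5% with day 8 and 53.3% with day 10 GFP cells, 48.9% with quiescent satellite cells, 38.2 and 39% with Dox cells of days 4 and 8, and 28.8% with FRG cells. Quiescent satellite cells shared 53.3% with day 10 and 50.6% with day 8 GFP cells, 50.2, 48.1, 49.7 and 50.4% with Dox+FRG cells of days 2, 4, 6 and 8, and 48.9% with activated satellite cells. They shared 45.9% with day 0 fibroblasts, 34.2 and 34.8% with Dox cells and 30% with FRG cells. Day 10 GFP cells shared 66.5% with unsorted day 8 Dox+FRG cells, 67.8% with day 8 GFP cells and 46.5% with day 0 fibroblasts. Means are over 4 library pairs, which share their libraries. The most common widths of the Dox and FRG lists, 61 to 88 bp, were the smallest, so the low overlap with these groups moved with list width, and that part was not tested.

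**Figure D3:**
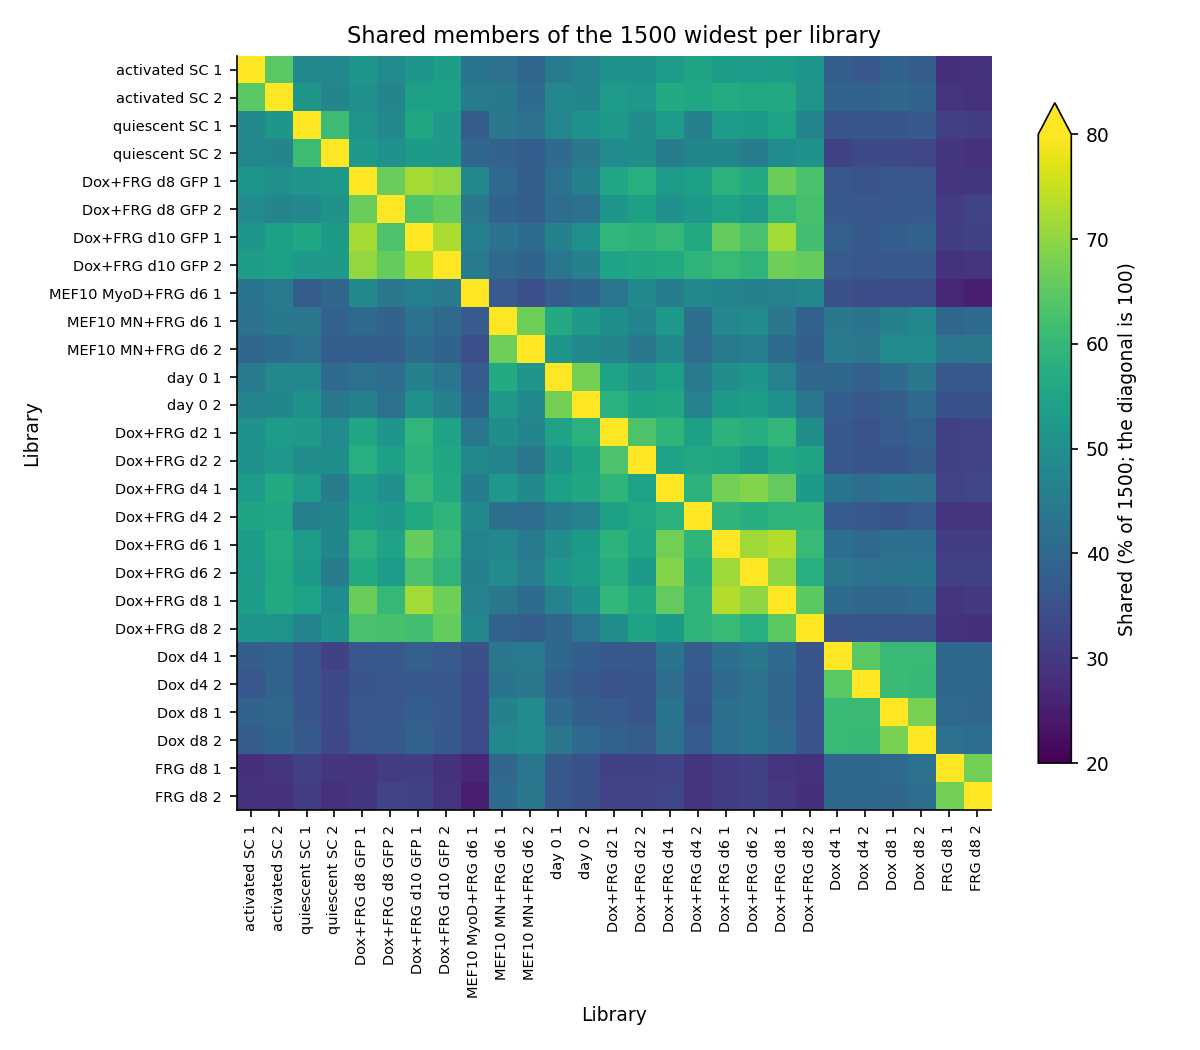
Share of the 1500 regions with the longest summed peaks that each pair of libraries had in common, among the regions called in all 27 libraries. Rows and columns are libraries with their replicate number. Pairs from 1 group averaged 65.9%, other pairs 45.5%, and the Dox+FRG libraries, GFP cells included, form a block next to separate blocks for Dox and FRG.

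Single regions were compared by whether they were wide in every library of one side and in none of the other. No p-value by region is given. In 36.7 to 72.7% of the regions compared, the libraries of each group had no spread in width, and the model planned for them made more false than true calls on simulated data. Lengths given for single regions are summed over the peaks of a library in the region. Each count over all compared libraries stands beside the share of the same kind among all regions called in those libraries, and counts with a library left out are given without one. These background regions include the 13864, so the background share is drawn towards theirs.

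Fewer regions were wide in satellite cells alone than in day 0 fibroblasts alone, both among the 13864 and among all regions called in those libraries. In satellite cells, 90 of the 13864 regions (0.649%) were wide in all 4 libraries and narrow in both day 0 libraries, beside 0.631% of the 19344 regions called in those 6. In day 0 fibroblasts, 579 regions (4.18%) were wide in both and narrow in all 4 satellite cell libraries, beside 4.04%. The 13864 regions make up most of those 19344, so the shares had to lie near each other, and no conclusion is drawn from their nearness. The 2 sides do not ask the same of a region, since 4 libraries had to be wide on one and 2 on the other. With the 617 bp limit the counts were 93 (0.671%, beside 0.631%) and 430 (3.1%, beside 3.08%). Without day 0 replicate 2 they were 128 and 1240, without day 0 replicate 1 they were 145 and 839, and without quiescent satellite cell replicate 2 they were 140 and 617.

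Among the regions wide in satellite cells alone, chr4:124791970-124794069 measured 1833 and 1692 bp in activated and 1837 and 1864 bp in quiescent satellite cells, against 153 and 167 bp in day 0 fibroblasts. It was wide in all other groups as well except for 1 day 2 library. GFP cells had 1231 and 1193 bp on day 8 and 1262 and 1227 bp on day 10. Dox+FRG cells had 1251 and 410 bp on day 2, 2050 and 1271 bp on day 4, 1224 and 1217 bp on day 6, and 1206 and 1221 bp on day 8. The 410 bp are 2 narrow peaks. Dox cells had 1151 and 994 bp on day 4 and 1949 and 1950 bp on day 8, and FRG cells 2008 and 1948 bp. Day 0 fibroblasts were therefore the group in which both libraries were narrow.

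The region chr2:11093683-11096044 measured 2169 and 2137 bp in activated and 2197 and 1257 bp in quiescent satellite cells, and 153 and 167 bp in day 0 fibroblasts. Unlike the region on chromosome 4 it was narrow on day 2 of Dox+FRG, at 192 and 205 bp, and wide in both libraries on day 6, at 1065 and 1099 bp, and day 8, at 1087 and 1164 bp. On day 4 of Dox+FRG it had 1085 and 172 bp. Day 8 GFP cells had 2 narrow peaks in each library, which summed to 380 and 364 bp, and day 10 GFP cells had 1200 and 172 bp. In FRG cells it summed to 61 and 197 bp. The third region, chr6:125983127-125985989, measured 1052 and 1099 bp in activated, 2124 and 2190 bp in quiescent satellite cells, and 153 and 167 bp in day 0 fibroblasts. It was wide in every library outside day 0.

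In the other direction, chr17:21785854-21787831 measured 182 and 173 bp in activated and 180 and 172 bp in quiescent satellite cells, against 1722 and 1726 bp in day 0 fibroblasts. Its Dox+FRG peaks were narrow on every day, with 2 narrow peaks each on day 2, and GFP cells were narrow too. In Dox cells it measured 786 and 786 bp on day 4 and 795 and 886 bp on day 8, in FRG cells 821 and 1797 bp, and in MN+FRG cells 1619 and 1612 bp. The region chr7:75456221-75458277 was narrow in satellite cells, both GFP groups and Dox+FRG cells of days 2 and 8, against 1715 and 1741 bp in day 0 fibroblasts. On day 6 of Dox+FRG it was wide in both libraries, at 1084 and 1020 bp. The region chr7:81697225-81700617 had the largest difference, with 182 and 173 bp in activated and 180 and 172 bp in quiescent satellite cells, against 2547 and 1532 bp in day 0 fibroblasts. It was wide in both libraries of Dox+FRG on days 4, 6 and 8 (901 and 795, 902 and 940, 1016 and 918 bp). These regions were named for the size of their difference.

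Against day 0 fibroblasts, day 10 GFP cells also had fewer regions wide on their side alone. The same order held among all regions called in those libraries, so it is not particular to the regions open everywhere. In GFP cells 305 regions (2.2%) were wide in both libraries and narrow in both day 0 libraries, beside 2.46% of 30767 regions called in those 4. In day 0 fibroblasts alone 956 (6.9%) were wide, beside 5.97%. With the 617 bp limit the counts were 311 (2.24%, beside 2.48%) and 755 (5.45%, beside 4.68%). Without day 10 GFP replicate 1 they were 466 and 1328, without its replicate 2 they were 486 and 1078, and without day 0 replicate 2 they were 397 and 1848.

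The region chr12:4553333-4555731 was wide in GFP cells of both days, at 2305 and 2347 bp on day 8 and 2303 and 2282 bp on day 10, against 153 and 334 bp in day 0 fibroblasts, where 334 bp are 2 narrow peaks. In unsorted Dox+FRG cells it had 384 and 410 bp on day 2, 2318 and 172 bp on day 4, 344 and 320 bp on day 6 and 2303 and 344 bp on day 8. It was narrow in both activated satellite cell libraries, which summed to 182 and 346 bp, and in FRG cells, which summed to 122 and 126 bp. The region chr5:135015902-135017790 measured 1820 and 1823 bp on day 8 and 1871 and 1870 bp on day 10 in GFP cells, against 153 and 167 bp in day 0 fibroblasts, and it was already 1044 and 1129 bp on day 2 of Dox+FRG. The third, chr8:96695359-96697679, measured 1134 and 2152 bp on day 10 in GFP cells and 153 and 167 bp in day 0 fibroblasts.

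Among regions wide in day 0 fibroblasts, chr4:43534496-43537406 measured 184 and 172 bp in day 10 GFP cells, against 1995 and 2113 bp in day 0 fibroblasts. It was narrow in both libraries of Dox+FRG on days 4, 6 and 8, and in activated satellite cells, at 182 and 173 bp. Quiescent satellite cells had 987 and 2095 bp there, and the region is named in that comparison as well. The region chr11:75491441-75493664 measured 184 and 172 bp in day 10 GFP cells against 2181 and 2203 bp in day 0 fibroblasts, and chr3:32513906-32516180 measured 184 and 172 bp against 1675 and 1880 bp. At chr3:32513906-32516180 Dox cells were wide, at 1576 and 1526 bp on day 4 and 1970 and 2239 bp on day 8.

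Activated and quiescent satellite cells had like numbers of regions wide on one side alone. In activated cells 389 regions (2.81%) were wide in both libraries and narrow in both quiescent libraries, beside 2.58% of 23569 regions. In quiescent cells alone 345 (2.49%) were wide, beside 2.73%. With the 617 bp limit these were 374 (2.7%, beside 2.5%) and 319 (2.3%, beside 2.54%). Without quiescent replicate 2 there were 463 and 899. In the other cases there were 828 and 447 (without activated replicate 1), 672 and 570 (without activated replicate 2) and 655 and 514 (without quiescent replicate 1). Since a left-out library changes what each side asks of a region, which side had more is left undecided.

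The region chr15:83423688-83425696 measured 1945 and 1929 bp in activated and 180 and 172 bp in quiescent satellite cells. It was also wide in day 0 fibroblasts, at 1913 and 1922 bp, and on day 2 of Dox+FRG, at 1922 and 1947 bp, and narrow on day 6, at 172 and 160 bp, and day 8, at 180 and 172 bp. The region chr3:117569929-117572204 measured 1883 and 1972 bp in activated and 180 and 172 bp in quiescent satellite cells, and it was narrow in all 4 GFP libraries and in day 0 fibroblasts. Unsorted Dox+FRG cells had 896 and 895 bp there on day 8, so the GFP and the unsorted cells of day 8 did not overlap. The region chr7:28292000-28293944 measured 1814 and 1904 bp in activated and 180 and 172 bp in quiescent satellite cells. In quiescent cells alone, chr11:117590201-117593071 was wide, with 182 and 173 bp in activated against 1828 and 1338 bp in quiescent cells, and so was chr1:14000901-14002893, with 182 and 173 bp against 1993 and 943 bp.

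Dox+FRG and Dox cells of days 4 and 8 differed almost wholly in one direction. In Dox+FRG cells 8 regions (0.0577%) were wide in all 4 libraries and narrow in all 4 Dox libraries, beside 0.0436% of 34429 regions. In Dox cells alone 3249 (23.4%) were wide, beside 14.3%. The Dox lists had a lower width for wide peaks, 234 to 264 bp, and with the 617 bp limit the counts were 16 (0.115%, beside 0.09%) and 642 (4.63%, beside 2.84%). Without Dox day 4 replicate 1 the 8 regions became 13. The Dox-only share of these regions was above the background under both limits, and its size moved with the limit.

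The region chr6:87825159-87826455 was wide in Dox+FRG cells alone, with 1247 and 1232 bp on day 4 and 1171 and 1238 bp on day 8, against 78 and 79 bp and 82 and 88 bp in Dox cells. Activated satellite cells had 1209 and 1181 bp there, and quiescent satellite cells 180 and 172 bp. Day 10 GFP cells had 1253 and 1218 bp, day 0 fibroblasts 153 and 167 bp, and FRG cells 61 and 63 bp. The region chr16:25532081-25533563 had 1310 and 1233 bp on day 4 and 1263 and 1261 bp on day 8 of Dox+FRG, against 78 and 79 bp and 164 and 88 bp in Dox cells. It was likewise wide in activated satellite cells, at 1303 and 1309 bp, with 2 narrow peaks in each quiescent library, at 360 and 344 bp. The third, chr7:74885114-74886891, had 1645 and 1032 bp on day 4 and 1013 and 1408 bp on day 8 of Dox+FRG. Unlike the others it was wide in both quiescent satellite cell libraries, at 1438 and 983 bp. Activated satellite cells had 364 bp, from 2 narrow peaks, and 1040 bp. It was narrow in GFP cells, at 190 and 182 bp on day 8 and 184 and 172 bp on day 10, and wide in FRG cells, at 1221 and 1314 bp.

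Of the regions wide in Dox cells alone, chr5:89357665-89359903 had 178 and 172 bp on day 4 and 180 and 172 bp on day 8 in Dox+FRG cells, against 2173 and 2164 bp and 2186 and 2189 bp in Dox cells. It was also wide in day 0 fibroblasts, at 1109 and 1198 bp, and FRG cells, at 1359 and 1290 bp, and narrow in all satellite cell and GFP libraries. The region chr12:106799518-106803220 had 178 and 172 bp and 180 and 172 bp in Dox+FRG cells, against 2614 and 2681 bp on day 4 and 2692 and 3652 bp on day 8 in Dox cells. At chr1:169322408-169324626 Dox+FRG cells had the same narrow widths, against 1997 to 2163 bp in Dox cells.

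The 90 satellite-wide and 579 fibroblast-wide regions were followed through the 21 libraries that had no part in defining them. These classes were chosen after the widths had been seen, so they are described and not tested. The third class is the 8427 regions that were narrow in all 6 defining libraries. Satellite-wide regions had to be wide in 4 libraries and narrow in 2, and fibroblast-wide regions wide in 2 and narrow in 4. Regions chosen for width in more libraries may be wide more often elsewhere, and that part of the class differences was not tested. The same classes were not followed among all 19344 regions called in the 6 libraries. What follows is therefore not shown to be particular to the regions open everywhere.

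Most satellite-wide regions were wide in Dox+FRG cells from day 4 on, and most fibroblast-wide regions were narrow there. In unsorted Dox+FRG cells the satellite-wide regions were wide in 58.9 and 46.7% of cases on day 2, 78.9 and 65.6% on day 4, 75.6 and 73.3% on day 6 and 77.8 and 61.1% on day 8. The fibroblast-wide regions were wide in 33 and 21.6% on day 2, 38.9 and 13.1% on day 4, 34.2 and 40.8% on day 6 and 22.3 and 9.5% on day 8. Day 2, day 4 and day 8 libraries of 1 group differed by more than 10 points in both classes, in the direction of their list lengths. The regions narrow in all 6 libraries were wide in 0.973 to 4.33% of cases in these lists.

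GFP cells were alike. Satellite-wide regions were wide in 67.8 and 62.2% of cases on day 8 and 73.3 and 72.2% on day 10, and fibroblast-wide regions in 15 and 6.91% on day 8 and 19.7 and 11.2% on day 10. The satellite-wide minus the fibroblast-wide share was 55.7 ± 3.7 points in GFP libraries (SD, n = 4) and 40.6 ± 12 points in unsorted Dox+FRG libraries (SD, n = 8), 15.1 points apart. The unsorted side includes days 2 to 6. On day 8 GFP cells had 52.8 and 55.3 points and unsorted cells 55.5 and 51.6 points, which overlap.

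In Dox cells both classes were wide. Satellite-wide regions were wide in 85.6 and 87.8% of cases on day 4 and 90 and 91.1% on day 8, and fibroblast-wide regions in 82 and 81.7% on day 4 and 82.9 and 85.3% on day 8. Dox+FRG cells of the same days had a class difference of 49.9 ± 6.78 points, against 5.62 ± 1.51 points in Dox cells (SD, n = 4 each), and the groups did not overlap. The regions narrow in all 6 defining libraries were wide in 42.8 to 54.3% of cases in the Dox lists. With the 617 bp limit that share was 14.1 to 16.8%, the Dox class difference 19.4 to 24.7 points, and Dox+FRG stood 24.2 points above Dox.

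FRG and MN+FRG cells had the opposite order of classes. In FRG cells 74.4 and 70% of satellite-wide and 95.5 and 96.5% of fibroblast-wide regions were wide, and with the 617 bp limit 52.7 and 57% against 80.9 and 83%. In MEF10 MN+FRG cells these were 66.7 and 70% of satellite-wide and 73.2 and 81.5% of fibroblast-wide regions. With the 617 bp limit the satellite-wide minus the fibroblast-wide share in MN+FRG libraries was -2.95 and -3.27 points. MEF10 MyoD+FRG replicate 1 had 43.3% of satellite-wide and 27.8% of fibroblast-wide regions wide, from the shortest list.

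**Figure D4:**
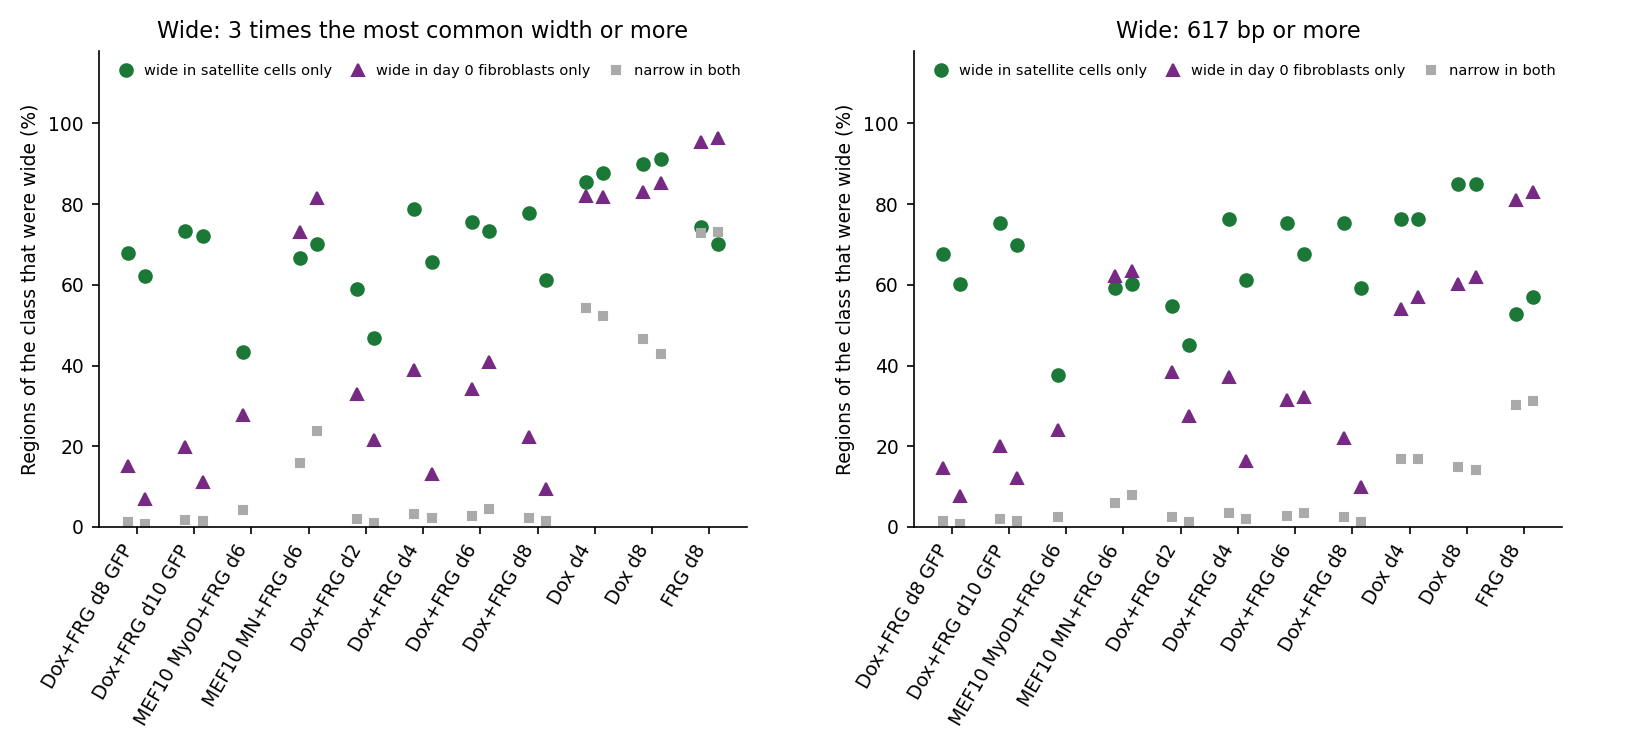
Share of satellite-wide (green circles), fibroblast-wide (purple triangles) and narrow (grey squares) regions that were wide in each library outside the 6 that define the classes. Left, wide by each list's own most common width, with 90, 579 and 8427 regions. Right, 617 bp or more, with classes of 93, 430 and 8978 regions. Circles lie above triangles in all GFP, Dox+FRG and Dox libraries, and triangles above circles in FRG and MN+FRG libraries, under both limits.

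Regions open in all libraries were spaced unevenly, with clusters and long empty stretches. Middles of neighbouring regions were a median of 60.6 kb apart, with 11.5 kb at the 10th and 398 kb at the 90th percentile and a mean of 185 kb. The mean was thus 3.06 times the median, against 2.03 times for all regions, whose median was 4.97 kb. The ratio was 2.38 for the 3428 regions called in 26 libraries, 2.12 for those in 25 and 1.89 for those in 1. A set of 250 neighbour pairs (1.81%) lay within 5 kb, and 459 pairs (3.32%) over 1 Mb apart. Measured within each list, neighbouring peaks in these regions were a median of 55.8 to 59 kb apart, and the other peaks 9.05 to 46.8 kb. The narrow range for these regions follows from the choice, since every library had a peak in each region. To the nearest peak of any kind in its own list, a peak in these regions had a median of 5.51 to 14.2 kb and the other peaks 4.6 to 14 kb.

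Windows of 100 kb also held these regions unevenly. The spread over windows was not worked out for all regions, so it is not shown to be particular to the regions open everywhere. Of 25784 windows, 8395 (32.6%) held at least 1 of the 13864 regions, and the count per window had a mean of 0.538 and a variance of 0.913. A total of 160 windows held 5 or more, with 870 regions (6.28%) in 0.621% of the windows. The fullest were chr8:74000001-74100000, with 9 of its 27 regions open in all libraries, chr13:23600001-23700000, with 9 of 20, and chr9:107400001-107500000, with 8 of 22. The longest stretch without such a region ran on chrX:23270311-33428501 over 10.2 Mb. It held 52 regions, called by a median of 1 library, of which 1 was called in 26 libraries. The next ran on chr7:39058198-46704688 over 7.65 Mb and held 20 regions, also with a median of 1 library, and none called in more than 19.

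The chromosomes differed in how many of these regions they held per Mb. Chromosome 11 had most, with 7.81 per Mb, and the X chromosome fewest, with 2.2 per Mb, a ratio of 3.55. All chromosomes together had 5.38 per Mb. The X chromosome was poor in regions of every kind: it held 2.59% of the regions open in all libraries (359 of 13864) and 2.6% of all regions, so that 5.4% of its regions were called in all 27, beside 5.42% in all. The share called in all 27 was highest on chromosome 7, at 7.77%, and lowest on chromosome 14, at 4.37%. On chromosome 7, with 7.1 per Mb, neighbours were a median of 38.8 kb apart, against 115 kb on the X chromosome. Chromosome 7 combined a high density of these regions with a low density of all regions, at 91.4 per Mb against 121 per Mb on chromosome 11. By library, peaks in these regions lay on the X chromosome in 2.55 to 2.61% of cases and on chromosome 11 in 6.65 to 6.79%, while other peaks varied from 1.79 to 2.72% and from 4.81 to 6.34%.

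**Figure D5:**
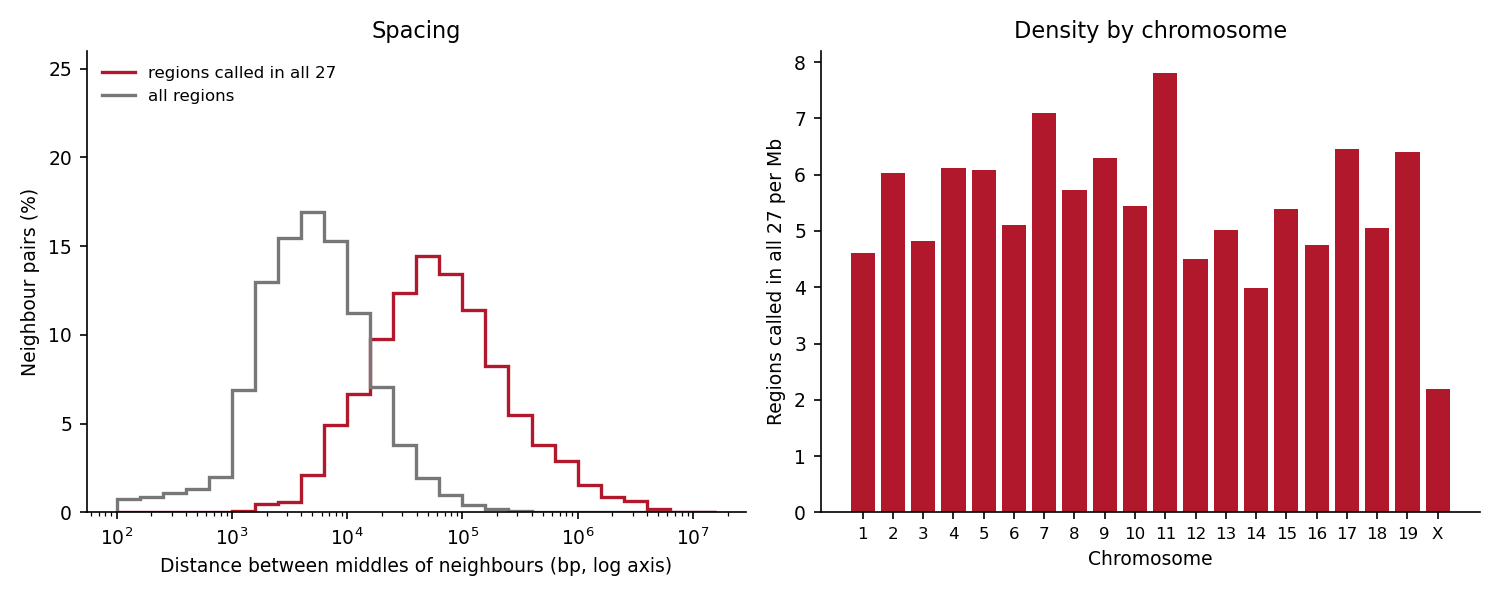
Left, distance between the middles of neighbouring regions called in all 27 libraries (red) and of neighbouring regions of any kind (grey), as a share of neighbour pairs on a log axis from 100 bp up. Right, regions called in all 27 libraries per Mb of each chromosome between its first and last region. The red distances centre near their median of 60.6 kb and the grey ones near 4.97 kb, and density runs from 2.2 per Mb on the X chromosome to 7.81 per Mb on chromosome 11.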

How the data were processed

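The deposited files were peak lists, 1 per library, with chromosome, start and end, and no score, read count or width column. BWA, HOMER and the mm9 build are named per the submitters' processing notes. For versions, thresholds and read filters, nothing is given in the sources used here. Starts in the lists count from 0, and positions are printed 1-based. Depth is unknown.

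Peaks of 27 lists were merged where they shared 1 bp or more, and a region was kept when each list had a peak in it. The most common width of each list was taken as its narrow width. Breadth was compared by two-sided exact permutation tests over libraries with Benjamini-Hochberg adjustment over 3 comparisons and a threshold of 0.05. A fit by region with limma 3.58.1 in R 4.3.3 had been planned. It was set aside for the reasons given with the single regions. Counts of regions wide in every library of one side and none of the other took its place and were chosen after the data had been seen, as were the classes. Per comparison and direction, the 3 regions with the largest log2 difference in summed length were named, as were the 3 widest, the 3 with the longest shared stretch, the 3 fullest windows and the 2 longest gaps. The members and lists were chosen with earlier results of these data known. Libraries were not treated as paired by replicate number. Deviations of same-numbered libraries correlated at -0.054 to 0.173 (median 0.001) over 78 group pairs, 7 of them over 0.1. Many regions had no spread in width, so these values cannot exclude a pairing. By widest regions, replicates 1 of Dox+FRG days 6 and 8 were nearest to each other (73%). Day 8 GFP replicate 1 was nearest to day 10 GFP replicate 1 (71.8%), but day 4 replicate 1 to day 6 replicate 2 (68.8%). Whether same-numbered libraries share a batch was not tested. Gene annotation, marker genes and sequences were not used, because no mm9 genome or annotation was at hand, so the labelled cell types were not checked against markers. Merging was tested on simulated lists. Python 3.11.15, pandas 2.3.3 and numpy 2.4.6 were used. Alternatives were a 50% overlap, equal list lengths by random draw, regions with a base covered in all libraries, autosomes alone, the 28th list added, other measures of width, and each library left out.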

Additional observations from a re-analysis of the deposited data

How the results depend on the processing

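The 13864 regions became 13777 with a 50% overlap, 14059 with the 28th list added and 13505 on autosomes alone, and 13860 to 15147 with each library left out. Requiring a base covered in every library left 5670. An equal draw of 37301 peaks from each list left 0, since a draw from each of 27 lists rarely keeps all peaks of a region. The share with a peak in the 28th list was 99.88% at a 50% overlap, and the spacing was 59.4 kb between edges. With the fibroblast-derived lists matched on most common width, the satellite cell difference was -0.00 (0.39 against 0.39, exact permutation p = 0.997), over Dox+FRG lists alone. Under 8 other alternatives each, the 3 breadth comparisons kept their direction and did not pass the threshold, and with each library left out they were -0.60 to -0.48 (satellite cells), -0.13 to -0.08 (GFP cells) and -1.57 to -1.49 (Dox+FRG against Dox). With a replicate block they stayed at -0.56, -0.10 and -1.53 (adjusted p = 0.202, 0.0933 and 0.0933, exact permutation test). For Dox+FRG against Dox, 70 splits allow no p below 0.0286 (exact permutation test), and a replicate block allows fewer splits. The libraries of its 2 sides did not overlap, and the p of 0.0286 became 0.0857 on adjustment over the 3 comparisons (exact permutation test). Regions wide on one side alone, both directions added, numbered 669 (satellite cells against day 0), 1261 (day 10 GFP against day 0), 3257 (Dox+FRG against Dox) and 734 (activated against quiescent). Among regions with a shared base, which are fewer, they were 282, 514, 1109 and 295, and with the 617 bp limit Dox+FRG against Dox had 658. With each library left out, so that fewer had to agree, they were 757 to 1368, 1564 to 2245, 3329 to 3766 and 1169 to 1362. The class difference of Dox+FRG against Dox was 24.2 points with the 617 bp limit and 42.4 to 47.6 with each library left out, and that of GFP against unsorted cells 12.9 to 17.3. Not run were the planned limma alternatives (no normalisation, median centring, members alone in the fit, replicate block in the fit). These limits hold for all widths: depth is unknown, and a most common width that differs between lists sets what counts as wide.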
